A study of Xenopus tropicalis with 2 samples.

Results

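The cells described here are the skeletal muscle cells recovered when pax6:GFP+ cells were sorted from tadpole tails of Xenopus tropicalis. They are the cells that the authors' deposited table of all cells names Skeletal Muscle, matched to the raw matrices by barcode and library, and they number 471 of 3707 cells. The uninjured library held 412 of them among 2617 cells, and the library of 24 hours post amputation (24hpa) held 59 among 1090. Both libraries came from transgenic tadpoles with GFP driven by a pax6 promoter, a line that also carries a red reporter under crystallin (cryga) and cardiac actin (actc1) promoters, so the animals of both groups share all 3 promoters. Uninjured cells were from tail tips of tadpoles at NF stage 41, which is 3 days post fertilization. For 24hpa, the posterior part of the tail was cut off at the same stage. After 24 h, tail tips described as regenerated tissue were dissociated. Whether their muscle cells lay in regrown tissue or in the stump beside it was not tested. Many tails were pooled into each library and each group is 1 library, so nothing was measured between animals, and amputation, age, tail level and library cannot be told apart. Cells of 1 library are not replicates, and no test was made.

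Skeletal muscle fibres contract when myosin thick filaments pull on actin thin filaments within the sarcomere, whose Z-discs anchor the thin filaments. Calcium released by the sarcoplasmic reticulum starts contraction through troponin, and creatine kinase and glycolysis supply ATP quickly. In the tadpole tail, muscle is built from myotomes in which slow and fast fibres differ in their myosins, troponins, calcium pumps and parvalbumins, and Myf5, Myogenin and Myf6 are transcription factors that drive muscle differentiation.

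Transcripts were counted as unique molecular identifiers (UMIs), so that copies of 1 captured molecule count once. UMIs were summed over the muscle cells of a library and scaled to the share of the cells' total, as counts per 1000000 UMIs (CPM). Intervals of CPM are exact 95% Poisson intervals, and those of shares are exact 95% Clopper-Pearson intervals. All intervals cover counting error only. Uninjured muscle cells held 4044687 UMIs in all and 24hpa muscle cells 1425161, with a median of 9553 UMIs and 1747 genes per uninjured cell and 16552 UMIs and 1829 genes per 24hpa cell. Depth at 24hpa ran from 3189 to 97899 UMIs, and the deepest cell held 6.87% of the muscle UMIs. No muscle barcode was shared by the libraries, 0 of 471 cells. The deposited cell cycle phase was G1 for 410 of the 412 cells uninjured and for 57 of the 59 at 24hpa.

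Free RNA, which enters droplets from broken cells, was read from barcodes too small to be cells. From 5 globin and intelectin genes it was estimated at 5.57% of the UMIs of uninjured muscle cells (4.95 to 6.24%, from 299 UMIs) and 0.651% at 24hpa (0.0165 to 3.63%, from 1 UMI). Muscle genes were themselves abundant in it, with actc1 at 11821 CPM in the uninjured library and 11017 at 24hpa. Levels given below for free RNA are those within free RNA itself, of which muscle cells held only the estimated shares. The GFP transgene had 0 UMIs in the called cells of every cluster in both libraries, so its count says nothing about muscle. Pax6, the factor whose promoter drives the transgene, had at least 1 UMI in 4 of 412 uninjured muscle cells (0.971%, 0.265 to 2.47%). At 24hpa it had a UMI in 0 of 59, where the floor of 3 cells is 5.08% and the upper Clopper-Pearson limit 6.06%. In Small Secretory Cell 1, a secretory cluster used here as the background cell type, 1 of 313 and 1 of 146 cells had a UMI, at median depths of 4885 and 6282.5 UMIs.

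Muscle made up 15.7% of called cells in the uninjured library (14.4 to 17.2%) and 5.41% at 24hpa (4.15 to 6.93%). Because the genes that define the cluster also differed between the libraries, as described below, no gain or loss of muscle is read from these shares. Within the named cluster the authors' numbered clusters 3 and 9 were joined. Cluster 9 gave 159 of 412 uninjured muscle cells (38.6%, 33.9 to 43.5%) and 16 of 59 at 24hpa (27.1%, 16.4 to 40.3%).

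The label was checked against actc1, the actin of cardiac and embryonic skeletal muscle, and myl1, an essential myosin light chain. A UMI alone marked nothing, since actc1 had one in every muscle cell and also in 313 of 313 and 142 of 146 cells of Small Secretory Cell 1, so levels were compared. Actc1 stood at 22549 CPM in uninjured muscle (22403 to 22696) and 34732 at 24hpa (34426 to 35039), and myl1 at 18823 (18689 to 18957) and 28818 (28540 to 29098). They were the most abundant pair of genes in these cells, 5.87-fold and 5.78-fold above the mean of all other called cells, though below Dermomyotome, where actc1 stood at 45289 CPM and myl1 at 42961 over both libraries, against 25723 and 21427 in muscle. Mylpf, the regulatory light chain of fast muscle, followed at 15751 and 24945 CPM. The 15 genes with the highest CPM also held atp5g3, a subunit of the mitochondrial ATP synthase, at 16475 and 18044 CPM, gapdh, the glycolytic dehydrogenase, at 5398 and 22700 CPM, and tnni1.2, a slow-type troponin I, at 8167 and 10831 CPM. Also among them were the ribosomal protein genes rps12, rplp1, rpl10 and rpl10a, the RNA-binding gene rbm6, and MGC75700, Xetrov90008553m.g and Xetrov90013213m.g, which carry no descriptive name in the files. Rps12 was 1.07-fold above the other cells, so abundance alone did not mark muscle.

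Genes with the highest ratio to all other cells were less abundant ones. Myh2, a myosin heavy chain, was 33.5-fold above them at 2645 CPM in uninjured muscle and 546 at 24hpa. The identifier Xetrov90026713m.g, next in number to myh2 in the files and without a name there, was 29.8-fold above them, and reads of such neighbouring family members could be split between them. Gjd4, a gap junction protein, was 22.2-fold above them at 698 and 474 CPM. Pgam2, the muscle form of phosphoglycerate mutase, was 22.1-fold above them at 1284 and 2363 CPM. Myh7b, a myosin heavy chain of slow muscle, was 36.6-fold above them, and ppp1r3a, which brings a phosphatase to glycogen, was 20.9-fold above them. Further members of this group were adipoq, a hormone known from fat cells, fbp2, the muscle fructose bisphosphatase, krt5.4, a keratin, btbd1, arx, aldh3b1-like.1, kiaa1755-like, LOC100135243 and LOC100491051-like. The cells were clustered on such genes, so these ratios describe the cluster and test nothing.

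Sarcomere genes, meaning the thin filament, thick filament and Z-disc lists together, took a median of 7.96% of a cell's UMIs in uninjured muscle (2.03 to 15.2% from lowest to highest cell) and 12.1% at 24hpa (0.491 to 23.4%). In cluster 3 the median was 7.70% uninjured and 13.0% at 24hpa. In cluster 9 it was 8.66% uninjured and 4.19% at 24hpa. At 24hpa 5 cells, all in cluster 9, were under 2%, a level that 0 uninjured muscle cells had. Without them the other 11 cells of cluster 9 had a median of 5.62% (2.31 to 13.2%). By this share these 5 cells stand apart from uninjured muscle, but a low share alone does not settle whether the name holds for them. Values without them, which leaves 54 cells at 24hpa, stand beside the genes that move most. Outside muscle, the median stood between 0.192 and 0.626% in the other named clusters, except in cells named Dermomyotome (14.5 and 23.7%) and Bipotent Progenitor (7.35 and 2.45%).

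**Figure D1:**
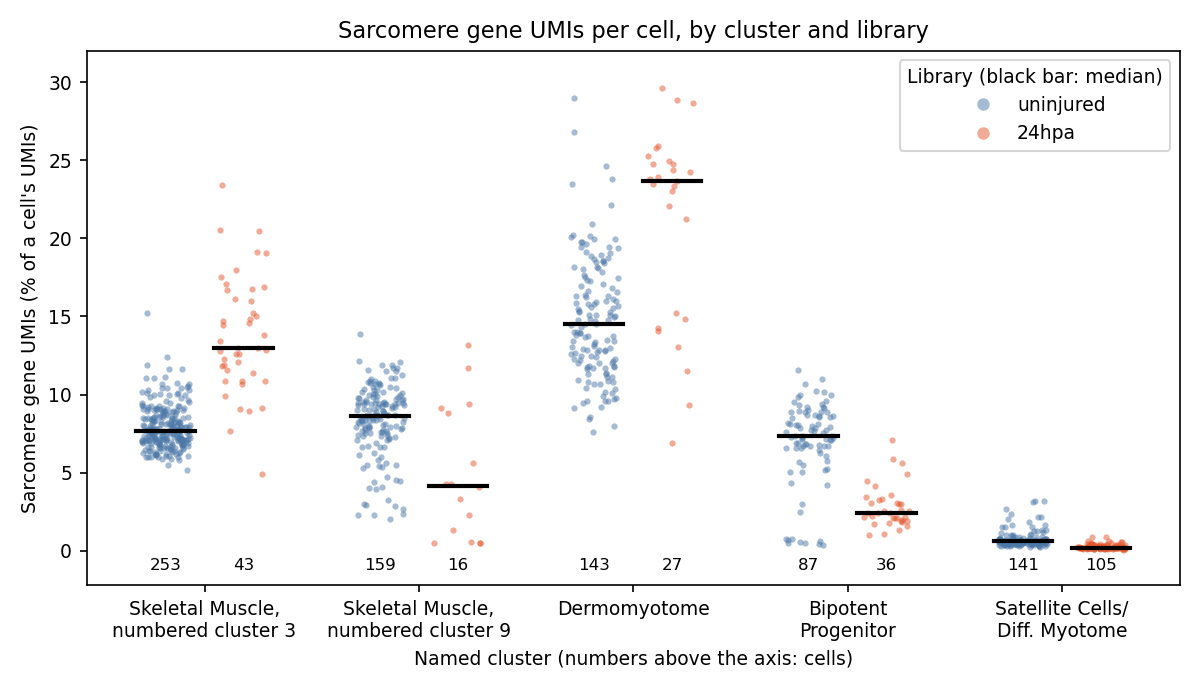
Share of each cell's UMIs in sarcomere genes (percent, vertical axis) for the numbered clusters 3 and 9 of skeletal muscle and for 3 other named clusters, with uninjured cells in blue and 24hpa cells in red. Each point is a cell and each black bar a median. In cluster 3 the 24hpa cells sit above most uninjured cells (medians 13.0 and 7.70%), while in cluster 9 they spread below them, 5 of 16 under 2%.

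The main question that the samples pose is how muscle cells of the 24hpa tail tips differ from those of the intact tail. At least 50 UMIs over both libraries were found for 4489 genes. Called means here that CPM differed by 2-fold or more, with ratios on the log2 scale as 24hpa over uninjured. On library totals 236 genes were called higher at 24hpa (5.26%) and 1390 lower (31.0%), with a median ratio of -0.49 over all genes compared. The split depends on the scaling. TMM factors, which set the bulk of genes equal, moved every ratio up by 0.34, and 417 genes (9.29%) were then higher and 996 (22.2%) lower, with a median of -0.15. Of the 4489 genes, 2275 (50.7%) had CPM intervals that did not overlap. What pooling, age or tissue adds to counting error was not measured. In Dermomyotome, the cluster most like muscle, 80 of 2751 genes (2.91%) were called higher at 24hpa and 867 (31.5%) lower on totals. Gene groups are described by their counts and medians beside these values for all genes.

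Thin filament genes had a median ratio of 0.35 over the 10 genes compared (0.69 with TMM). Of these 1 was called higher at 24hpa and 1 lower (3 and 1 with TMM), while their summed CPM was 37344 uninjured and 56896 at 24hpa, a ratio of 0.61. Tnnc1, the calcium-binding troponin C of slow and cardiac muscle, had 474 CPM in uninjured muscle (453 to 496) and 1673 at 24hpa (1606 to 1741), a ratio of 1.82 (1.73 to 1.91). Tnnt3, fast troponin T, had 4499 and 8443 CPM and a ratio of 0.91. Actc1 had a ratio of 0.62 and tnni1.2 of 0.41, both short of the call. In contrast, neb-like, a relative of the thin filament ruler nebulin, had 523 CPM uninjured (501 to 546) and 152 at 24hpa (132 to 173), a ratio of -1.79. That ratio was -0.12 in cells of 5000 to 20000 UMIs and -0.59 with the CPM of single cells averaged. Acta1, skeletal actin, was nearly absent with 8.16 and 7.72 CPM.

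Thick filament genes split in both directions. Of 15 compared, 4 were called higher and 6 lower, with a median of -0.31 that became 0.03 with TMM, although their summed CPM was higher at 24hpa (39450 and 57156, ratio 0.53) most of which the light chains myl1 and mylpf made up. Myl1, mylpf and mybph, a myosin-binding protein, had ratios of 0.61, 0.66 and 0.86. Myh2 had 10700 UMIs uninjured and 778 at 24hpa, a ratio of -2.28 (-2.38 to -2.17), and myh7b had 833 and 32, a ratio of -3.20. Both heavy chains were lower at 24hpa, whereas myh4, a fast myosin heavy chain, had 109 and 217 UMIs and a ratio of 2.50. Myl2, the regulatory light chain of slow and cardiac muscle, had 22 and 79 UMIs, a ratio of 3.35 (2.65 to 4.10), in 9 uninjured cells and 5 cells at 24hpa, with 70 of the 79 UMIs in 2 cells of cluster 9. The ratio was 1.32 in cluster 3 alone and 1.42 in cells of 5000 to 20000 UMIs. Mybpc1, slow myosin-binding protein C, had 388 UMIs in 112 uninjured cells and 0 UMIs at 24hpa. Against a floor of 3 UMIs over the group, which is the count that 0 allows, the log2 ratio was -5.51 or lower. Myosin heavy chain genes are close copies, so reads may have been split between them.

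Z-disc genes had a median of -0.34 over 14 compared (-0.01 with TMM), with 2 called higher and 4 lower, while their summed CPM was 4751 and 5371. Tcap, telethonin, which caps titin at the Z-disc, differed most of all genes compared. It had 2 UMIs in uninjured muscle (0.494 CPM, 0.0599 to 1.79) and 400 at 24hpa (281 CPM, 254 to 310), a ratio of 9.15 (7.29 to 12.20). At least 1 UMI was seen in 2 of 412 uninjured cells (0.485%) and 29 of 59 at 24hpa (49.2%, 35.9 to 62.5%). With each cell thinned to 2700 UMIs the shares were 0.136% and 31.5%, and in Small Secretory Cell 1, without thinning, 0 of 313 cells (floor of 3 cells 0.958%, upper limit 1.17%) and 4 of 146 (2.74%) had a UMI. Free RNA held tcap at 3.38 CPM uninjured and 87.0 at 24hpa. Des.1, the intermediate filament desmin, had 1045 and 2834 CPM, a ratio of 1.44. Ankrd2, a Z-disc and nuclear protein that responds to stretch, had 761 and 90.5 CPM, a ratio of -3.07, and actn3, fast alpha-actinin, had 801 and 337 CPM, a ratio of -1.25. Myoz2, a calcineurin-binding Z-disc protein of slow fibres, was close between libraries at 839 and 777 CPM.

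**Figure D2:**
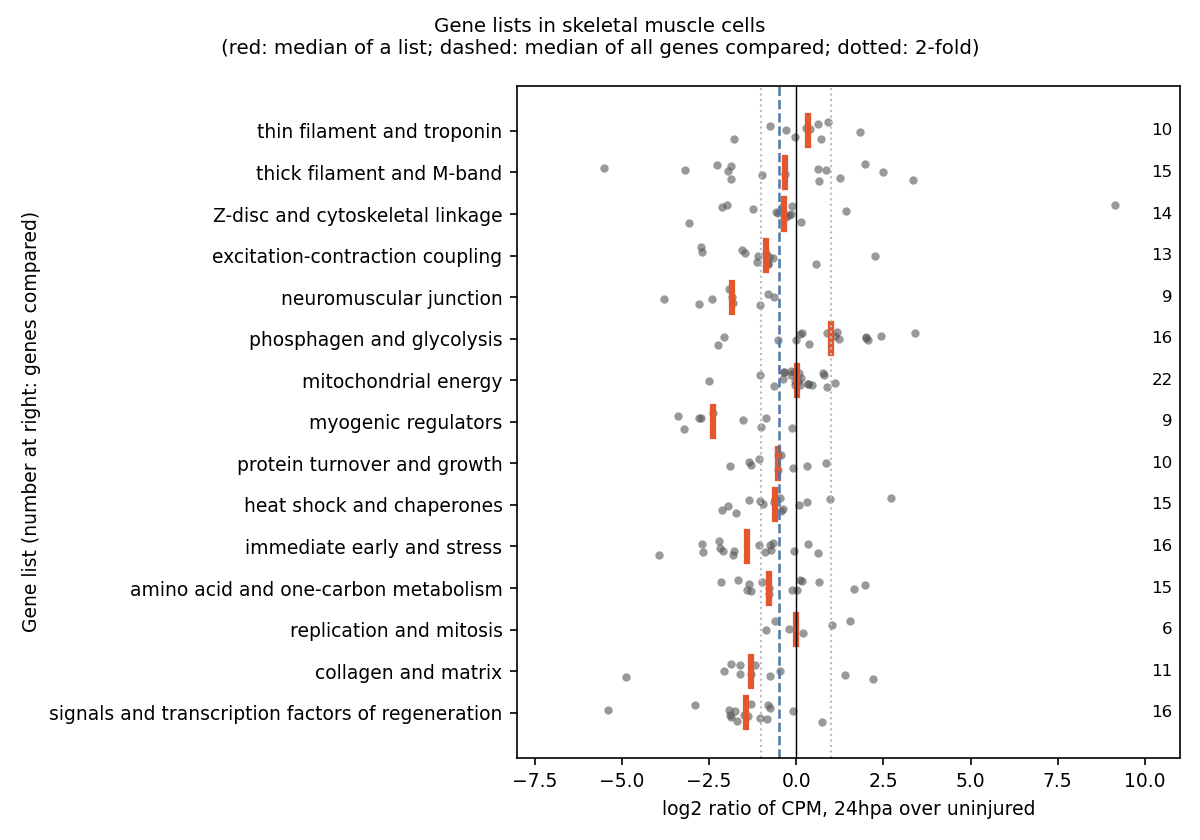
Ratios of CPM at 24hpa over uninjured (log2, horizontal axis) in skeletal muscle cells for 15 gene lists. Each grey point is a gene with at least 50 UMIs, red bars are list medians, the dashed line is the median of all genes compared (-0.49) and dotted lines mark 2-fold. Phosphagen and glycolysis genes have the highest median (0.99) and myogenic regulators the lowest (-2.40). The thick filament gene at -5.51 is mybpc1, drawn at its bound.

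Genes of the phosphagen system and glycolysis were higher at 24hpa as a group. Of 16 compared, 8 were called higher and 2 lower, with a median of 0.99 (1.33 with TMM), and their summed CPM was 17530 uninjured and 56932 at 24hpa. This held for cluster 3 but not for cluster 9, where the median was -0.87 and the sum 8129 and 7012 CPM, or 10386 at 24hpa without the 5 cells low in sarcomere UMIs (median -0.41). In Dermomyotome the sum was also higher at 24hpa, with 17840 and 43763 CPM. Ckm, muscle creatine kinase, had 1277 CPM uninjured (1242 to 1312) and 13633 at 24hpa (13442 to 13826), a ratio of 3.42 (3.37 to 3.46). Ckm was not an all-or-none gene. Uninjured, 389 of 412 cells carried it, and 55 of 59 did at 24hpa, and the median cell went from 1017 to 11052 CPM with an overlapping range (0 to 11742 and 0 to 46436). Free RNA held 1662 and 5702 CPM of ckm, and 70.3% of Small Secretory Cell 1 cells uninjured and 81.5% at 24hpa also had a UMI. After thinning to 2700 UMIs those shares were 47.9% and 50.1%, against 80.3% and 85.9% in muscle. With the estimated free RNA subtracted the ratio of ckm was 3.45.

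Other enzymes of the list followed. Gapdh had a ratio of 2.07 (2.05 to 2.10), from a median of 4089 CPM per uninjured cell to 21403 at 24hpa. Tpi1, triosephosphate isomerase, had 3303 UMIs and 817 CPM uninjured and 4707 UMIs and 3303 CPM at 24hpa. Ckb, the brain-type creatine kinase, had 3409 and 7339 CPM, a ratio of 1.11. Adssl1 and ampd1 belong to the purine nucleotide cycle that works beside them in muscle, with adssl1 at 201 and 1080 CPM and ampd1 at 15.8 and 63.9. Eno1, an enolase, was level at 1886 and 1892 CPM. The list had 2 genes that were called lower. Pygm, muscle glycogen phosphorylase, had 303 and 63.9 CPM, a ratio of -2.25 (-2.57 to -1.94), and hk1, hexokinase, 94.2 and 22.5 CPM.

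Mitochondrial genes hardly differed as a list, with a median of 0.01 over 22 compared (0.35 with TMM), 1 called higher and 2 lower. Atp5g3 was at 0.13, cox6a1, a subunit of cytochrome oxidase, at -0.07 and cycs, cytochrome c, at -0.38. Mdh2, mitochondrial malate dehydrogenase, had 860 and 1870 CPM, a ratio of 1.12. Cox7a2, another oxidase subunit, had 6651 and 3216 CPM, a ratio of -1.05 (-0.71 with TMM, short of the call). Free RNA held cox7a2 at 3503 and 1756 CPM, also lower at 24hpa. Ppargc1a, a coactivator that drives mitochondrial biogenesis, had 140 CPM in uninjured muscle and 24.6 at 24hpa, a ratio of -2.51 (-3.05 to -2.02). The factor was thus lower while most genes of the list were level.

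Genes that link excitation to contraction had a median of -0.87 over 13 compared, with 1 called higher and 6 lower. With TMM the median was -0.53, with 1 higher and 4 lower, and it was -0.15 with the CPM of single cells averaged. The summed CPM was higher at 24hpa, 2265 uninjured and 2880 at 24hpa. The sum rested on pvalb, a parvalbumin that buffers calcium, at 414 and 1998 CPM with a ratio of 2.27. Free RNA held pvalb at 880 and 2911 CPM, above muscle in both libraries, and the highest muscle cell had 14719 and 29009 CPM. With the estimated free RNA subtracted the ratio of pvalb was 2.37. Its copy pvalb.2 had 171 and 61.7 CPM, below its own level in free RNA (1815 and 3658 CPM), and pvalb.1 only 10 and 23 UMIs. Atp2a2-like, a calcium pump of the reticulum related to the slow and cardiac form, had 546 and 84.2 CPM, a ratio of -2.70 (-2.97 to -2.43). Cacna2d1, a calcium channel subunit, was at -2.74, and tmem38a, a potassium channel of the reticulum, had 465 and 157 CPM. Atp2a1, the fast calcium pump, had 89.7 and 51.2 CPM, and stac3, which couples the calcium channel to the release channel, 190 and 284.

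Genes of the neuromuscular junction, where motor axons contact the fibre, were lower at 24hpa. Of 9 compared 7 were called lower and 0 higher (6 with TMM), with a median of -1.85. Chrnd and chrng, subunits of the acetylcholine receptor, were the most abundant, chrnd with 1154 and 233 UMIs (ratio -0.80) and chrng, the subunit of the embryonic receptor, with 1132 and 196 (ratio -1.03, -1.25 to -0.81, and -0.69 with TMM). Chrna1.2, an alpha subunit, had 210 and 58.2 CPM. Rapsn, which clusters the receptor, had 91.5 and 23.9 CPM, a ratio of -1.94, and chrne, the adult-type subunit, had 27.2 and 17.5 CPM. Ache, acetylcholinesterase, had 351 UMIs in 206 uninjured cells and 9 UMIs in 9 cells at 24hpa, a ratio of -3.78 (-4.92 to -2.84). Lrp4, the receptor for agrin, had 355 and 18 UMIs.

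Myogenic regulators showed the lowest median of the 15 lists that are not markers of other tissues, -2.40 over 9 compared (-2.06 with TMM), with 7 called lower and 0 higher. Myf5 had 1045 UMIs uninjured (258 CPM, 243 to 275) and 53 at 24hpa (37.2 CPM, 27.9 to 48.6), a ratio of -2.80 (-3.22 to -2.40). Myf6 had 144 and 49.8 CPM, a ratio of -1.54, and myog 166 and 82.1, a ratio of -1.01 (-0.67 with TMM). Without the 5 cells low in sarcomere UMIs the ratios of myf5 and myog were -4.81 and -1.69. Those 5 cells held 41 of the 53 myf5 UMIs and 50 of the 117 myog UMIs at 24hpa. Within cluster 9 the ratios without them were -3.54 (-4.61 to -2.66) for myf5 and -0.34 (-0.74 to 0.04) for myog. At least 1 UMI of myf5 was seen in 48.3% of uninjured cells (43.4 to 53.2%) and 16.9% at 24hpa (8.44 to 29.0%). These shares were 31.2% and 6.75% after thinning, against 5.43% and 2.05% unthinned in Small Secretory Cell 1, whose cells were shallower. Celf1, an RNA-binding splicing factor, had 229 and 43.5 CPM, and rbm24, which directs muscle splicing, 369 and 203. Zic1, a zinc finger factor of dorsal myotome, had 150 and 5 UMIs, and cdkn1a, a cell cycle inhibitor, 369 and 14. Mstn.1, a relative of myostatin, had 0 UMIs in both libraries.

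Among heat shock genes, 1 of 15 was called higher and 5 lower, with a median of -0.61 (-0.27 with TMM). This is near all genes compared, of which 5.26% were called higher and 31.0% lower. Hspb1, a small heat shock protein, had 99.4 CPM uninjured and 657 at 24hpa, a ratio of 2.72 (2.55 to 2.90), with UMIs in 199 of 412 and 48 of 59 cells. Thinned shares were 21.9% and 61.0%, against 4.45% and 2.08% in Small Secretory Cell 1. The mitochondrial chaperonins went the other way, hspe1 with 4154 and 1079 CPM and hspd1 with 1012 and 309. Both were also lower at 24hpa in free RNA, hspe1 at 1795 and 573 CPM and hspd1 at 299 and 172. Hspa8 had 1151 and 756 CPM. Of 10 genes of protein turnover and growth, 4 were called lower and 0 higher, with a median of -0.52, close to that of all genes. Igf1r, the insulin-like growth factor receptor, had 158 and 15 UMIs, and the atrophy gene fbxo32 only 31 and 8.

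Immediate early and stress genes had a median of -1.41 over 16 compared, 9 called lower and 0 higher. The median was -2.17 in cluster 3 and -0.50 in cluster 9, or -0.87 there without the 5 cells low in sarcomere UMIs. Dusp1, a phosphatase induced by stress, had 175 and 4 UMIs, a ratio of -3.95, junb 112 and 54.0 CPM, and fos and jun 475 and 36 UMIs and 254 and 21 UMIs. Nr4a1, a nuclear receptor, was at -0.88, gadd45g at -0.66 and btg2 at 0.64. Atf4, a factor of the amino acid and unfolded protein response, was level at 522 and 504 CPM. Its relative atf5 had 58.1 and 229 CPM, a ratio of 1.98 (1.74 to 2.23), in 150 of 412 and 44 of 59 cells. Of the amino acid list around it, 2 of 15 were called higher and 5 lower, beside 5.26% and 31.0% of all genes compared. Asns, asparagine synthetase, had 7 and 0 UMIs.

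Signals and transcription factors known from regenerating tails had a median of -1.43 over 16 compared, with 11 called lower and 0 higher on totals and 9 and 1 with TMM. Without the 5 cells low in sarcomere UMIs the median was -2.23. It was -2.10 in cluster 3 and -0.50 in cluster 9, or -1.11 in cluster 9 without those 5 cells. Tgfb2, a TGF-beta ligand, had 119 UMIs in 86 uninjured cells and 1 UMI at 24hpa. Notch1, a Notch receptor, had 94.9 and 12.6 CPM, a ratio of -2.91. Id3, which blocks bHLH factors, had 133 and 35.1 CPM, hes4, a Notch target, 55.1 and 19.6, and sox11 57.4 and 28.1. Lin28b, an RNA-binding protein of early development, had 48 and 28 UMIs and a ratio of 0.73, but 14 of the 28 were in those 5 cells and the ratio was -0.14 without them. The ratio of hes4 was -1.49 with them and -2.36 without, and that of id3 -1.92 and -2.85. Meis1 had 65 and 13 UMIs, sox2 22 and 1, and pbx3 0 in both. Of these, sox2 had UMIs in 5.34% and 1.69% of muscle cells, against 3.51% and 1.37% in Small Secretory Cell 1 (uninjured 1.62% and 1.66% after thinning), and is read as background. Meis1 stood at 16.1 and 9.12 CPM in muscle and at 21.4 and 20.8 CPM in free RNA, an estimated 5.57% and 0.651% of muscle UMIs. With that free RNA subtracted its ratio was -0.80 in place of -0.82. After thinning, 4.52% and 3.82% of muscle cells had a meis1 UMI, against 3.49% and 3.18% in Small Secretory Cell 1 and 5.09% and 3.99% in Goblet Cells. These shares are close, so meis1 is not read as particular to muscle, and whether muscle cells express it was not tested.

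Collagen and matrix genes had 7 of 11 called lower and 2 higher, with a median of -1.30 (-1.77 without the 5 cells low in sarcomere UMIs). In cluster 3 the median was -2.30 and the sum 762 CPM uninjured and 242 at 24hpa. In cluster 9 the median was -0.14 and the sum 1192 and 1653 CPM, or 1160 at 24hpa without those 5 cells. Sparc, a collagen-binding matrix protein, had 372 and 152 CPM, a ratio of -1.30. Col5a2, a fibrillar collagen chain, had 111 and 36.5 CPM, tnc-like 105 and 34.4 and nid1, a basement membrane protein, 94.9 and 56.8. Without those 5 cells the ratio of sparc was -1.91 and that of nid1 -1.52 in place of -0.74. Fn1, fibronectin, had 31.6 and 147 CPM, a ratio of 2.21, and 1.32 without the 5 cells low in sarcomere UMIs, which held 106 of its 209 UMIs. Col1a2 had 73 and 68 UMIs, a ratio of 1.40. Each gene of this paragraph stood higher in free RNA than in muscle in both libraries. Free RNA held fn1 at 155 and 1403 CPM, col1a2 at 288 and 815 and sparc at 928 and 1053. It held tnc-like at 340 and 459 CPM, col5a2 at 135 and 202 and nid1 at 133 and 159. With the estimated free RNA subtracted, the ratio was 2.51 for fn1, 4.33 for col1a2 and -1.22 for sparc. It was then -1.53 for tnc-like, -1.63 for col5a2 and -0.72 for nid1.

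Beyond the lists, the highest ratios fell on genes that uninjured muscle barely had. LOC100490918-like had 1 UMI uninjured and 180 in 32 cells at 24hpa, a ratio of 9.00 (6.50 to 14.31), and LOC101734069-like 1 and 105 in 34 cells, a ratio of 8.22. Fgf12, an intracellular partner of sodium channels, had 19 and 153 UMIs, a ratio of 4.51 (3.82 to 5.29), in 13 and 27 cells. Mlf1-like had 74 and 499 UMIs in 57 and 42 cells, a ratio of 4.26. Socs3-like.1, related to an inhibitor of cytokine signalling, had 15 and 69 UMIs, in 13 and 27 cells. The other members of the 12 highest were tcap, ckm, myl2, LOC101734365, LOC100493658, gipc2 and c3. Gipc2, an adaptor protein, rested partly on 1 cell, since its ratio of 3.73 was 2.83 without the deepest cell and 0.92 in cells of 5000 to 20000 UMIs. C3, the central complement protein, had 11 and 72 UMIs, but 67 of the 72 were in 2 of the 5 cells low in sarcomere UMIs, and its ratio of 4.22 was 0.50 without those cells.

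Among the 12 lowest, several genes were also abundant in uninjured free RNA. Lect1, chondromodulin of cartilage, had 345 and 2 UMIs in muscle, a ratio of -5.93 (-8.98 to -4.06), which was -3.06 after subtraction of free RNA, where it stood at 1232 CPM uninjured and 134 at 24hpa. Itln1, the secreted lectin intelectin, had 202 and 1 UMIs and was one of the genes used to estimate free RNA. LOC733880 had 611 and 7 UMIs with 1680 and 1199 CPM in free RNA. Others stood lower in uninjured free RNA than in uninjured muscle. Wif1, a secreted Wnt inhibitor, had 1476 UMIs in 339 of 412 uninjured cells and 17 UMIs in 9 of 59 at 24hpa, 365 CPM (347 to 384) and 11.9 (6.95 to 19.1), a ratio of -4.94 (-5.72 to -4.25), and free RNA held it at 174 and 62.4 CPM. Mycn, a Myc family factor, had 269 and 2 UMIs, sdc3, the membrane proteoglycan syndecan 3, had 318 and 1, and neurl1, a ubiquitin ligase of Notch ligands, 199 and 2. Sdc3 had the lowest ratio among genes with a UMI in both libraries, -6.81 (-12.12 to -4.32). Its ratio was -2.62 in cells of 5000 to 20000 UMIs and -3.86 with the CPM of single cells averaged. Ndrg3, shroom1, an actin-binding protein, and aldh3b1-like.1 each had 1 UMI at 24hpa against 186, 153 and 112, and of these ndrg3 was higher in uninjured free RNA (69.8 CPM) than in muscle (46.0). The remaining members of the 12 were mybpc1 and tgfb2.

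Markers of other tissues were examined as whole lists. Of 7 blood genes 3 were at 0 in muscle, and their sum was 24.0 CPM uninjured and 0 at 24hpa. The 6 endothelial genes summed to 6.18 and 1.40 CPM with 4 at 0, and the 9 leukocyte genes to 2.23 and 0.702 CPM with 7 at 0, among them ptprc, the pan-leukocyte CD45, and spi1. Epidermal markers, 18 genes with 2 at 0, summed to 701 and 507 CPM. Of 9 compared 8 were called lower, otos with 421 and 8 UMIs, krt12 with 636 and 30 and krt5.7 with 825 and 51, all of them abundant in uninjured free RNA (1609, 1831 and 2744 CPM). After subtraction of free RNA the median of this list was -0.71 in place of -2.42. Krt8, a simple-epithelium keratin that the notochord list also holds, went the other way with 54.4 and 402 CPM, a ratio of 2.89, and a highest cell of 611 and 3263 CPM. Free RNA held krt8 at 990 and 1333 CPM. With the estimated free RNA subtracted the ratio of krt8 was 8.98, a bound, since no uninjured UMIs above the floor of 3 were left. Neural markers summed to 97.7 and 20.3 CPM with none of 12 at 0, and mesenchyme markers to 197 and 249 CPM with none of 8 at 0. All 4 neural genes compared were called lower, and of 5 mesenchyme genes 3 lower and 2 higher. Of all genes compared, 5.26% were called higher and 31.0% lower. After subtraction of free RNA the median of the neural list was -0.25 in place of -2.39. That of the mesenchyme list was 1.73 in place of -1.38. Notochord markers summed to 803 and 645 CPM, against 7105 and 6161 in free RNA. Satellite and dermomyotome markers summed to 296 and 47.7 CPM, and uninjured to 78.6 in cluster 3 and 623 in cluster 9. Tendon and sclerotome markers summed to 68.2 and 32.3 CPM. The part of these markers in the results was not tested.

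The numbered clusters divided muscle along differentiation genes. Of 3970 genes compared in uninjured cells, 657 (16.5%) were called higher in cluster 9 than in cluster 3 and 212 (5.34%) lower. Myog had 63 UMIs in cluster 3 (25.9 CPM) and 607 in cluster 9 (376 CPM), 3.86 higher in cluster 9 on the log2 scale (3.48 to 4.25), and myf5 had 64.6 and 550 CPM, 3.09 higher. Efemp2, a matrix fibulin, differed most at 15.6 and 503 CPM. Entpd2, an enzyme that breaks down extracellular ATP, had 37.9 and 457 CPM, snai1, a zinc finger repressor, had 17 and 150 UMIs, tcf12, a partner of myogenic bHLH factors, had 4.12 and 53.2, and the neurotrophin receptor ngfr 4.94 and 76.7. Npb, the precursor of neuropeptide B, had 4.53 and 128 CPM. The cells had been clustered on such genes, so this describes how the label was joined.

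Enzymes of the phosphagen and glycolysis list were higher in cluster 3. Uninjured ckm was 1853 CPM in cluster 3 and 410 in cluster 9, gapdh 7499 and 2239, pgk1 593 and 110, and bcat2, a mitochondrial aminotransferase of branched amino acids, 153 and 20.4. Atp2a2-like was 802 and 162 CPM and cygb, cytoglobin, 48.2 and 6.19. The most abundant sarcomere genes did not separate the clusters, with actc1 at 19978 and 26414 CPM and myl1 at 19586 and 17675. The phosphagen and glycolysis list summed to 23783 CPM in cluster 3 and 8129 in cluster 9, and the myogenic regulators to 736 and 2441. The list of replication and mitosis genes was low in both, 413 and 875 CPM.

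Seen separately, the clusters did not differ between libraries in the same way. In cluster 3, 195 of 3189 genes were called higher at 24hpa (6.11%) and 1220 lower (38.3%), and in cluster 9 251 of 2815 (8.92%) and 497 (17.7%). Cluster 9 had only 16 cells at 24hpa. Actc1 went from 19978 to 40179 CPM in cluster 3 and from 26414 to 16935 in cluster 9, and ckm from 1853 to 17456 and from 410 to 1141. Without the 5 cells low in sarcomere UMIs, cluster 9 at 24hpa had 24474 CPM of actc1, 18595 of myl1 (17675 uninjured) and 1777 of ckm. Actc1 and myl1 are in the lists by which those cells were chosen, so leaving the cells out raises both. The glycolysis sum went from 23783 to 72211 CPM in cluster 3 and from 8129 to 7012 in cluster 9. In cluster 3 myog had 63 and 4 UMIs and myf5 157 and 2, so the lower myogenic level at 24hpa was present there. In cluster 9 the list was lower as well, with a sum of 2441 and 1338 CPM and a median of -1.85 (myf5 -1.85 and myf6 -1.86), while myog had 376 and 338 CPM. Wif1 was lower in both, with ratios of -6.68 and -3.54, as was mybpc1, with 197 and 191 UMIs uninjured and 0 in both at 24hpa. Tcap was higher in both, with 2 and 382 UMIs in cluster 3 and 0 and 18 in cluster 9. Hspb1 was higher in both as well, with ratios of 2.54 and 2.02. Whether these differences between the clusters exceed the spread between animals was not tested.

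**Figure D3:**
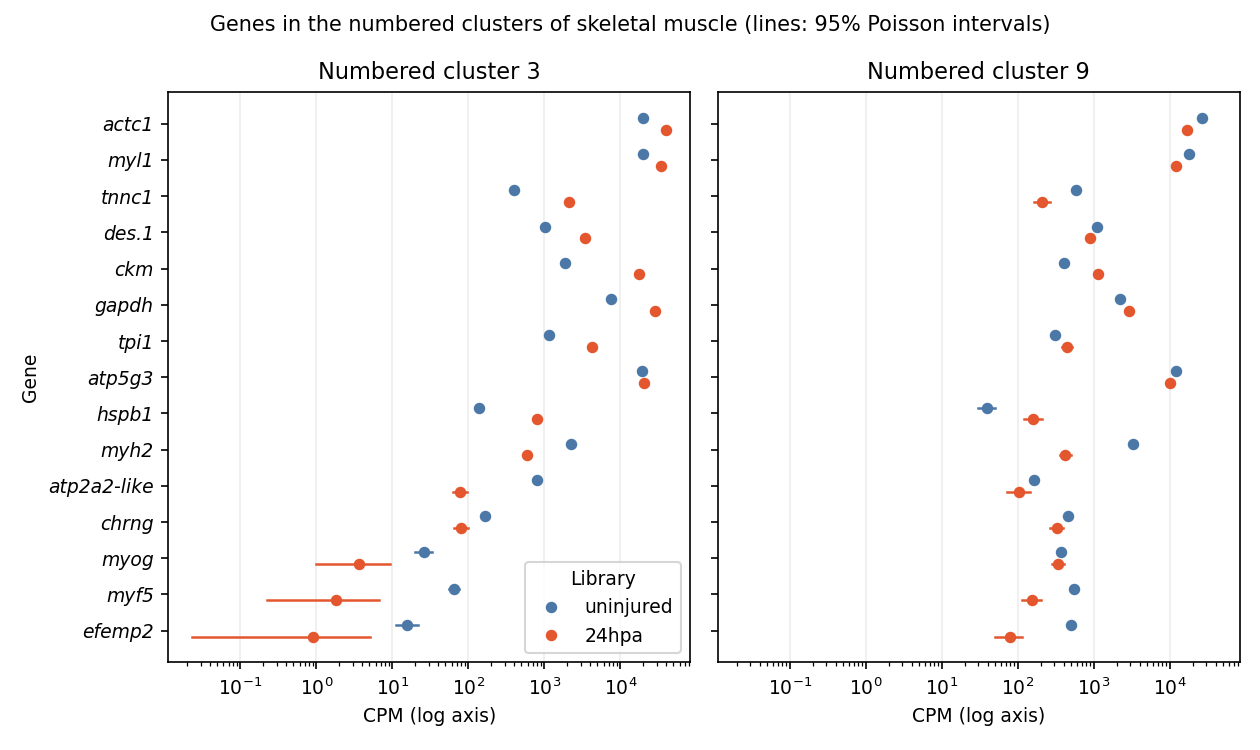
CPM (log axis) of 15 genes in the numbered clusters 3 (left) and 9 (right) of skeletal muscle, uninjured in blue and 24hpa in red, with exact 95% Poisson intervals as lines. Ckm, gapdh and hspb1 stand to the right at 24hpa in both panels, actc1 and tnnc1 are higher at 24hpa in cluster 3 and lower in cluster 9, and myog is low in cluster 3 and level in cluster 9.

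The 5 cells low in sarcomere UMIs held 121880 UMIs and between 1503 and 4067 genes, so they were not shallow. Against the other 11 cells of cluster 9 at 24hpa, they had 3815 and 24474 CPM of actc1 and 903 and 18595 of myl1. Both genes are in the lists by which the 5 cells were chosen, so this difference follows from the choice. Free RNA at 24hpa held these genes at 11017 and 10545 CPM, and was itself estimated at 0.651% of 24hpa muscle UMIs (0.0165 to 3.63%). Its part in the 5 cells was not tested. Of the myogenic genes, myog, myf5 and rbm24 were not lower in them. Myog was 410 CPM (304 to 541) in them and 297 (228 to 380) in the others, in 4 of the 5 cells. Myf5 was 336 (241 to 456) and 47.1 (22.6 to 86.7), in all 5, and rbm24 656 (520 to 817) and 339 (266 to 427). In contrast, myf6 was 16.4 (1.99 to 59.3) and 89.6 (53.9 to 140). Of the acetylcholine receptor subunits, chrnd was 238 and 288 CPM, whereas chrng had 0 and 109 UMIs and chrna1.2 0 and 21. Sfrp2, a secreted Wnt modulator, had 151 and 7 UMIs, though in 2 of the 5 cells only, entpd2 64 and 0, and mdk, the growth factor midkine, 236 and 35 with UMIs in all 5. Mesenchyme markers took 0.0238 to 0.365% of the UMIs of each of the 5 cells, and summed over all of cluster 9 they stood at 273 CPM uninjured and 737 at 24hpa. Fn1 was 870 CPM in the 5 cells and 278 in the other 11, and col1a2 131 and 42.4. Their part in these values was not tested.

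By the correlation of log2 CPM over 10318 genes, summed over both libraries, the cluster nearest to skeletal muscle was Dermomyotome (r = 0.95), followed by Bipotent Progenitor (0.867) and Satellite Cells/Differentiating Myotome (0.815). These values share their libraries and genes and are given as a description. Dermomyotome had 143 uninjured cells and 27 at 24hpa, 1 of which held 24.99% of the UMIs of those 27. The name is the authors'. Satellite and dermomyotome markers summed to 95.2 CPM uninjured and 21.2 at 24hpa in cells so named, against 296 and 47.7 in skeletal muscle. Uninjured muscle had 78.6 CPM of them in cluster 3 and 623 in cluster 9. Whether the name Dermomyotome holds was not tested. Of 5305 genes compared, 920 (17.3%) were called higher in skeletal muscle and 284 (5.35%) lower, with a median of 0.26. Several lists differed between the libraries in Dermomyotome as in muscle. Summed CPM was 71287 uninjured and 99822 at 24hpa for thin and 76278 and 111749 for thick filament genes. Excitation-contraction genes summed to 21986 and 41685, myogenic regulators to 1108 and 425, and collagen and matrix to 1797 and 510. Regeneration signals summed to 913 and 313. Z-disc (6169 and 4794) and mitochondrial (32927 and 26885) sums were lower at 24hpa, unlike in muscle.

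Lists of slow and fast fibre genes were drawn up after the values had been seen, so their counts describe the pair and test nothing. Of 8 slow genes compared, 5 were called higher in skeletal muscle and 0 lower, with a median of 1.57, and of 14 fast genes 1 was higher and 10 lower, with a median of -3.43. Prdm1, which sets slow fibre fate in zebrafish, had 264 UMIs in muscle and 6 in Dermomyotome, 4.44 higher (3.30 to 5.90). Ppargc1a was 110 and 7.78 CPM, myh7b 158 and 22.2, atp2a2-like 426 and 103, and tnni1.2 8861 and 4135. In contrast, tnni2, the fast troponin I, was 265 CPM in muscle and 10893 in Dermomyotome, and ocm, a parvalbumin relative, 305 and 15381. Pvalb.2 was 143 and 16452 CPM, a ratio of -6.85, and myoz1, a calsarcin of fast fibres, 5.12 and 276. Muscle levels of tnni2 were 296 and 176 CPM. Free RNA, an estimated 5.57% and 0.651% of muscle UMIs, held it at 1088 and 1909 CPM. The exception among fast genes was pgam2, at 1565 CPM in muscle and 458 in Dermomyotome. Other fast genes, though lower than in Dermomyotome, were still abundant in muscle, with myl1 at 21427 CPM, mylpf at 18147 and tnnt3 at 5526.

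The direction held within each library for most of these genes. Tnni2 was -4.99 uninjured and -6.47 at 24hpa, pvalb.2 -6.35 and -8.61, and ppargc1a 3.91 and 3.02. Myh7b was 3.10 uninjured, but 0.43 at 24hpa with an interval from -0.59 to 1.57. Tnnc1 was level uninjured at 474 and 419 CPM and higher in muscle at 24hpa at 1673 and 486. Between the libraries the slow genes had a median of -1.31 in muscle and the fast genes of -0.07 (-0.97 and 0.27 with TMM). Mitochondrial genes were higher in skeletal muscle than in Dermomyotome in 12 of 22 and lower in 1, and phosphagen and glycolysis genes higher in 10 of 16 and lower in 2. Ckm was one of the exceptions, with a ratio of -1.38. Excitation-contraction genes were lower in 8 of 15 and higher in 1.

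**Figure D4:**
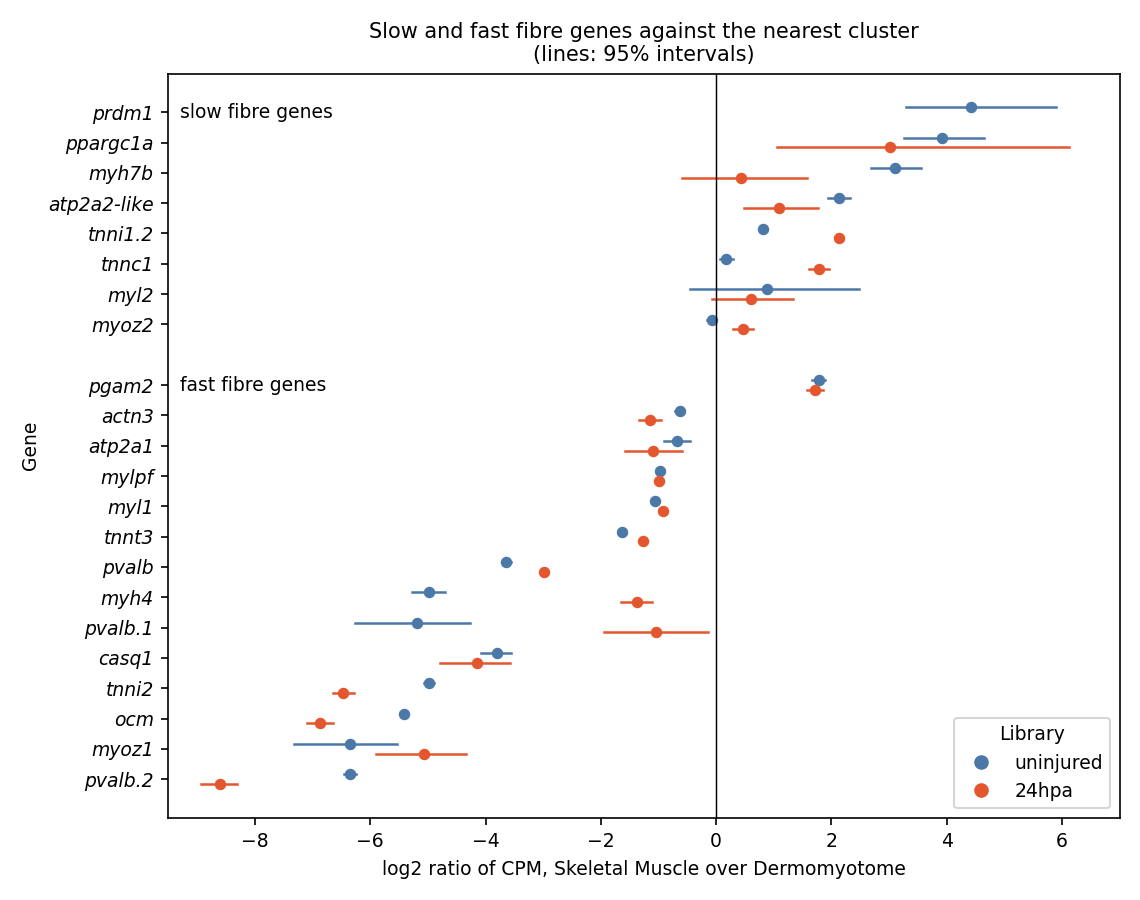
Ratio of CPM in Skeletal Muscle over Dermomyotome (log2, horizontal axis) for slow and fast fibre genes with at least 50 UMIs, uninjured in blue and 24hpa in red, with exact 95% intervals as lines. Slow genes lie mostly right of 0 and fast genes, except pgam2, left of it. Prdm1 has no 24hpa point because Dermomyotome had 0 UMIs there.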

How the data were processed

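Single-cell libraries were made by the authors with the 10x Genomics version 2 chemistry from sorted GFP+ cells. The deposited matrices hold raw UMI counts per gene and barcode, made by the authors with Cell Ranger. The submitters' processing notes name only GRCz11, a zebrafish build, while the gene identifiers are of Xenopus tropicalis, so the build behind the counts is not settled and no coordinates are printed. The authors' deposited table gave clusters, phases and cell cycle scores, the score being the mean expression of a gene list less control genes, of which only the phase is used, and 28 of their columns were not used. Of 14374 gene identifiers 12993 had names. Members and gene lists were chosen with earlier results of these data known. The libraries held 48622597 UMIs (uninjured) and 32798976 (24hpa). UMIs were summed per library and compared as CPM with exact intervals (scipy 1.17.1). Where a library had 0 UMIs, 3 were set in its place and the ratio is a bound. Genes needed 50 UMIs over both libraries. TMM factors came from edgeR 4.0.16. Scrublet (scanpy 1.11.5) marked 8 of 2617 and 1 of 1090 cells as doublets, too few to be useful, and cells with the 2% highest scores were also left out. Alternatives also included cells with 1000 genes, cells of 5000 to 20000 UMIs, free RNA subtraction from barcodes under 100 UMIs, and minimums of 20 UMIs or none. The named genes were the 15 with the highest CPM, the 15 with the highest ratio over other cells, the 12 highest and 12 lowest ratios between libraries with intervals apart, the extremes and most abundant members of each list, and 25 preset genes, of which 19 were matched; tnnc2, myod1, pax7, pax3, mef2c and trim63 had no match. Genes named beyond these, including fos, jun, lrp4, cdkn1a, tpi1, myh4 and those separating the numbered clusters, were chosen after their values were seen. Some genes that the rule names are not reported here. The calculation of ratios was checked on simulated Poisson counts. These had no variation between cells, animals or libraries, so the check covers the calculation only.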

Additional observations from a re-analysis of the deposited data

Results flagged for a closer look

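Genes named here had ratios that were 2-fold or more in opposite directions in separate groups of cells, with intervals that excluded 0. None of these differences was tested, since each group of cells came from 1 library per condition. Tnnc1 was 2.39 at 24hpa over uninjured on the log2 scale in numbered cluster 3 (980 and 2314 UMIs) and -1.47 in cluster 9 (937 and 70 UMIs). Ckb was 1.07 and -1.18, and mybph 1.00 and -1.37. Without the 5 cells low in sarcomere UMIs, a choice made after seeing the data, the ratios in cluster 9 were -0.81 for tnnc1, -0.61 for ckb and -0.73 for mybph, short of 2-fold, and 0.29 for pcna. Tnnc1 and mybph are in the lists by which those cells were chosen. Pcna, a sliding clamp of DNA replication, was -2.62 in cluster 3 (41 and 3 UMIs) and 1.72 in cluster 9 (25 and 17 UMIs), where 13 of the 17 UMIs were in the 5 cells low in sarcomere UMIs. Chrng was -1.05 in cluster 3 and 1.31 in Dermomyotome (173 and 139 UMIs).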

How the results depend on the processing

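No paired analysis was possible because each group has 1 library. Across the alternatives 64 of 74 summary values moved by less than 1.5 times or stayed within the spread. Of the others, genes called higher numbered 417 with TMM, 397 with at least 20 UMIs and 820 with no minimum. Genes called lower numbered 917 in cells of 5000 to 20000 UMIs, 497 in cluster 9 alone, 2128 with at least 20 UMIs and 2603 with no minimum. The median of phosphagen and glycolysis genes was -0.89 in cluster 9 alone, over members with 50 UMIs there (-0.87 over members with 50 in all muscle). The share of uninjured muscle was 18.9% among cells with at least 5000 UMIs. The median sarcomere share at 24hpa was 9.90% in cells of 5000 to 20000 UMIs. The 5 settings that leave out cells by doublet score, sarcomere share, deepest cell or numbered cluster were chosen after seeing the data. Of 140 named genes 52 had another sign in at least 1 setting, 37 of them in cluster 9 alone, and 14 of the 52 had a ratio of 2-fold or more as reported. Among these 14, signs turned in cluster 9 alone for gipc2 (-0.31), tnnc1 (-1.47), des.1 (-0.30), mdh2 (-0.26), ckb (-1.18), junb (0.31), Xetrov90026713m.g (0.22), krt5.4 (0.27) and sox2 (0.54), and in cluster 3 alone for pvalb.1 (-1.43) and ccnb1.2 (-1.43). In cells of 5000 to 20000 UMIs they turned for ccnb1.2 (-0.67), psmd1 (0.0027), pvalb.2 (0.0446), Xetrov90026713m.g (0.14) and sox2 (1.28). Ccnb1.2 was -0.27 without the 5 cells low in sarcomere UMIs, and lum 1.73 after free RNA subtraction. Some genes called lower kept their sign but fell short of 2-fold in cells of 5000 to 20000 UMIs. Among them were neb-like (-0.12), actn3 (-0.41), igf1r (-0.57), col5a2 (-0.58) and chrng (-0.56), while myf5 (-2.7) and wif1 (-4.40) stayed beyond 2-fold. Of genes called higher, des.1 (0.99), mdh2 (0.81) and gipc2 (0.92) also fell short there, while ckm (3.04) and tcap (9.17) stayed beyond 2-fold. The causes were not tested. With 59 cells at 24hpa, genes under 50 UMIs were not compared.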
